A study of Mus musculus with 16 samples.

Results

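Liver makes most of the complement and clotting proteins of plasma, and transcripts of 48 such genes were followed in livers of mice on a high-fat diet. The genes were chosen by symbol from a list of complement and coagulation factors and their inhibitors, and each matched 1 of the 55487 rows of the tables. They are 18 complement factors, 3 complement inhibitors, 16 coagulation factors, 5 coagulation inhibitors, 4 genes of fibrinolysis and 2 other plasma proteins. All 48 passed the filter on low counts.

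Whole-liver RNA was sequenced in 16 libraries, of which 6 are named Flpo, 5 Cre and 5 GFP. All groups share the genotype label J1 J2 lf/lf and the C57/Bl6J strain, and all mice were fed the high-fat diet. The series describes hepatocyte-specific mice for splice forms of the kinase JNK, called LJ1J27b for Flpo, LJ1J27a for Cre and LJ1J2control for GFP. Flpo and Cre are recombinases and GFP is a fluorescent protein. The labels give no age, sex, route of delivery or hour of harvest. The JL numbers in the titles run in blocks by group, and no label says what they count. Whatever order they follow, its effect and an effect of group cannot be told apart. No label states that each library is another mouse, so the p-values reflect only how these libraries scatter.

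In the classical pathway complement is set off by C1q, which binds antibody and carries the proteases C1r and C1s. Other routes start with mannose-binding lectins and MASP proteases (lectin pathway) or with factors B and D and properdin (alternative pathway). All routes cleave C3, after which the terminal components build the membrane attack complex. Coagulation is a chain of proteases that ends when thrombin turns fibrinogen into fibrin, held back by inhibitors such as antithrombin and undone by plasmin. In mice, males are known to have higher terminal complement activity than females.

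C6, C8a, C8b and F11 rose together in Cre livers, and the 250 bases before their RefSeq starts (GRCm38.p6) are printed 5′ to 3′ for comparison. Capitals mark matches, on either strand, to the STAT motif TTCNNNGAA or the HNF1 motif GTTAAT, which do not overlap here. The C6 region is chr15:4726960-4727209 on the plus strand, and that of C8a is chr4:104876399-104876648 on the minus strand. The C8b region is chr4:104766067-104766316 on the plus strand, and that of F11 is chr8:45262032-45262281 on the minus strand.
C6: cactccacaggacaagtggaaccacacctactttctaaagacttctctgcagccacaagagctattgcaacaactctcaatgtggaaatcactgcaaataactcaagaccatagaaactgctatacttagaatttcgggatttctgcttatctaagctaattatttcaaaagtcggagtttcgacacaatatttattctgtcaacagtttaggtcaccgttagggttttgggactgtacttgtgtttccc
C8a: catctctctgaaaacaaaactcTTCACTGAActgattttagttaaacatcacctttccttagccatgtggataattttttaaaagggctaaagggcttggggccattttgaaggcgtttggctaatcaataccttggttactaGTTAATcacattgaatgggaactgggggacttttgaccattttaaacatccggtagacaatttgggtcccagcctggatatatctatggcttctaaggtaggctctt
C8b: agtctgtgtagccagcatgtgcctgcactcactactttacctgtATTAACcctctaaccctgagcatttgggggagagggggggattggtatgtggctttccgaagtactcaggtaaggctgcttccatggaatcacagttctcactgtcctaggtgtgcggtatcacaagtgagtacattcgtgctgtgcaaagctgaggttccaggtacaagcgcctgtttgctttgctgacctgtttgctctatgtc
F11: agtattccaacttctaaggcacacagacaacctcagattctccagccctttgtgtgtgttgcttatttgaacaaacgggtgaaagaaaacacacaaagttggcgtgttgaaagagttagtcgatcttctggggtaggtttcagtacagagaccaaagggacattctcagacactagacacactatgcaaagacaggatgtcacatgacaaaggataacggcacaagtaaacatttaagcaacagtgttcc
The C8a region held 1 match to each motif and the C8b region 1 match to the HNF1 motif. No match was found in the C6 and F11 regions, nor in those of C1s1 and Cfd, which are not printed. The STAT motif stood in 7.18% of 27025 regions of the same length and in 7 of the 39 members with an entry. The HNF1 motif stood in 6.52% of all regions and in 12 of the 39. The HNF4 motif CAAAGTCCA and the TATA motif TATAAA were searched too. The HNF4 motif stood in 0.381% of all regions and in 0 of the 39. The TATA motif stood in 12.97% of all regions and in 3 of the 39. A match describes letters only.

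Library totals ranged from 27929393 to 36043322 counts. Levels of single genes are given as CPM (each gene's counts relative to the library total, scaled with TMM factors for composition) and, between genes, as TPM (also scaled for gene length). The targeted genes Mapk8 and Mapk9 are measured over the whole gene, which does not check their splice forms. Mapk8 (JNK1) averaged 13.5 ± 0.824 CPM in Flpo, 11.4 ± 2.44 CPM in Cre and 11.7 ± 3.04 CPM in GFP livers (SD, n = 6, 5 and 5, as for all means below). Mapk9 (JNK2) averaged 46.3 ± 4.21 CPM in Flpo, 33.1 ± 5.49 CPM in Cre and 42.7 ± 14.1 CPM in GFP livers. Hepatocyte markers, 11 of 12 found, summed to 77058 to 92423 TPM in Flpo, 72106 to 102973 TPM in Cre and 82056 to 92212 TPM in GFP livers. Major urinary protein (Mup) transcripts, as a share of counts, took 1.95% to 6.49% in Flpo, 5.65% to 13.8% in Cre and 2.24% to 3.91% in GFP livers. Flpo replicate 1 held the highest value of its group for 24 of the 48 genes, and Cre replicate 5 the lowest of its group for 35.

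By TPM, the most abundant transcript was Serpinc1, which encodes antithrombin, at a mean of 2327 TPM over all libraries. Fgg, Fga, Vtn (vitronectin) and C3 followed at 1974, 1940.1, 1669 and 1352 TPM. The least abundant were F3, the gene of tissue factor, at 1.89 TPM and F8, the gene of a clotting cofactor, at 1.07 TPM. As a share of all TPM, the 48 genes took 1.88% to 2.53% in Flpo, 1.79% to 2.31% in Cre and 2.03% to 2.19% in GFP livers. These ranges overlapped between all groups. The median coefficient of variation between replicates was 10.4% in Flpo, 15.4% in Cre and 10.4% in GFP livers. It was highest for C6 in Flpo livers, at 53.4%, and lowest for Proz in Flpo livers, at 2.24%.

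**Figure D1:**
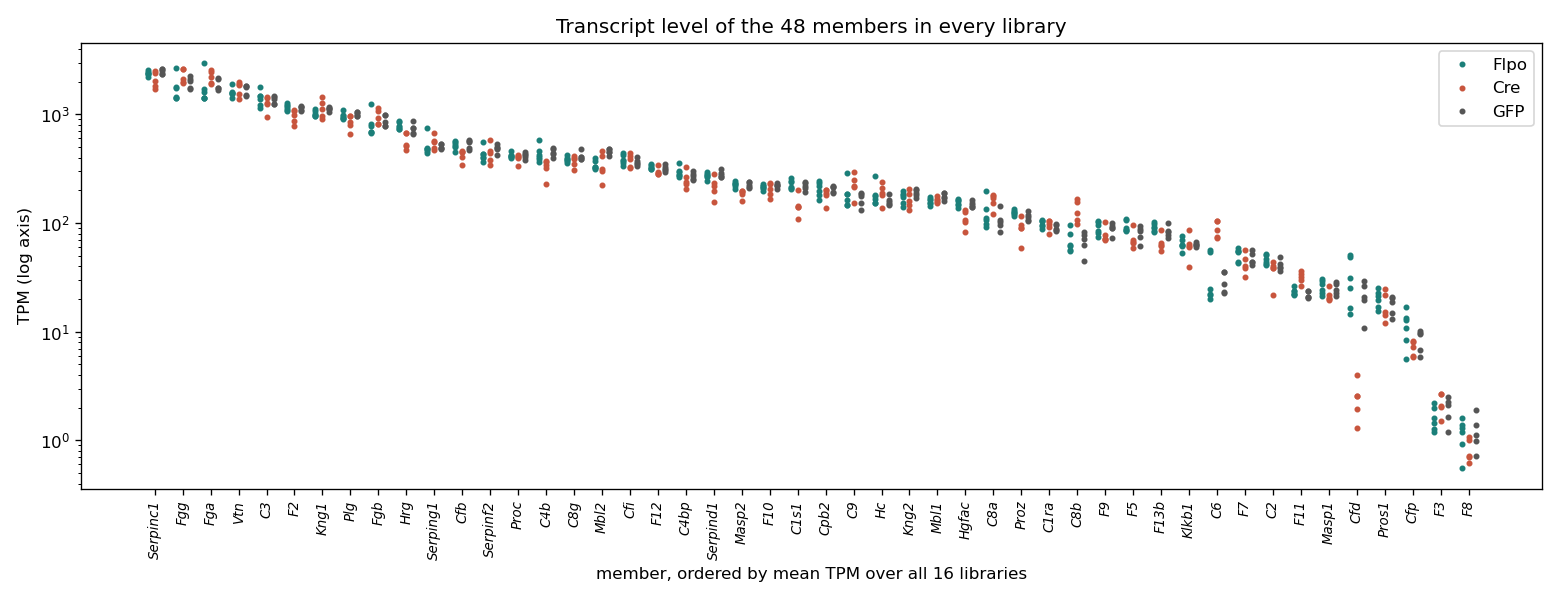
Transcript level in TPM (log axis) of the 48 genes, with 1 point per library, ordered by their mean over 16 libraries (Flpo, Cre and GFP from left to right). Means ran from 2327 TPM for Serpinc1 to 1.07 TPM for F8, and the Cfd points of Cre livers lay below those of both other groups.

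In Cre against GFP livers, 3 membrane attack genes (C6, C8a and C8b) and the contact-phase gene F11 rose, while C1s1 of the classical pathway and Cfd of the alternative pathway fell. These 6 of 48 genes are 12.5%, beside 9.55% of all 13905 genes tested (edgeR's quasi-likelihood test, adjusted p under 0.05). The 4 that rose stand beside 3.97% of all genes called higher, and the 2 that fell beside 5.58% called lower. The share is near that of all genes in this fit. Fits without each library in turn called 6 to 11 of the 48. The 11 (22.9%, beside 9.81% of all genes) came without Flpo replicate 1. That library is in neither group compared and enters only through the model shared by all libraries. With limma on log2(TPM + 1) the share was 27.1% (13 genes), beside 15.1%. DESeq2 called 9 of the 48, beside 1777 of 15553 genes. Of the 48, only the 6 called in edgeR had Cre and GFP libraries without overlap. Over all genes tested the share without overlap was 8.2% (3.56% above and 4.64% below). In bulk liver, fewer cells of a type and less RNA per cell cannot be told apart.

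The median log2 fold change in Cre against GFP was 0.03 over the 48 genes and 0.00 over all genes tested. Complement held 5 of the calls among 21 genes, and the other 27 genes held 1. These counts were 8 and 1 in DESeq2, and 9 and 4 with limma on log2(TPM + 1). The difference between these shares was not tested. The 8 inhibitors of both cascades had 0 calls in edgeR, 0 in DESeq2 and 1 with limma on log2(TPM + 1). In edgeR 2 had an unadjusted p under 0.05. Of all 13905 genes, edgeR called 1328 (9.55%), and 3373 had an unadjusted p under 0.05. At these shares 8 genes can hold 0 calls, so no contrast with the factors is drawn. The same shares stand beside the smaller sets counted below in Cre against GFP.

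**Figure D2:**
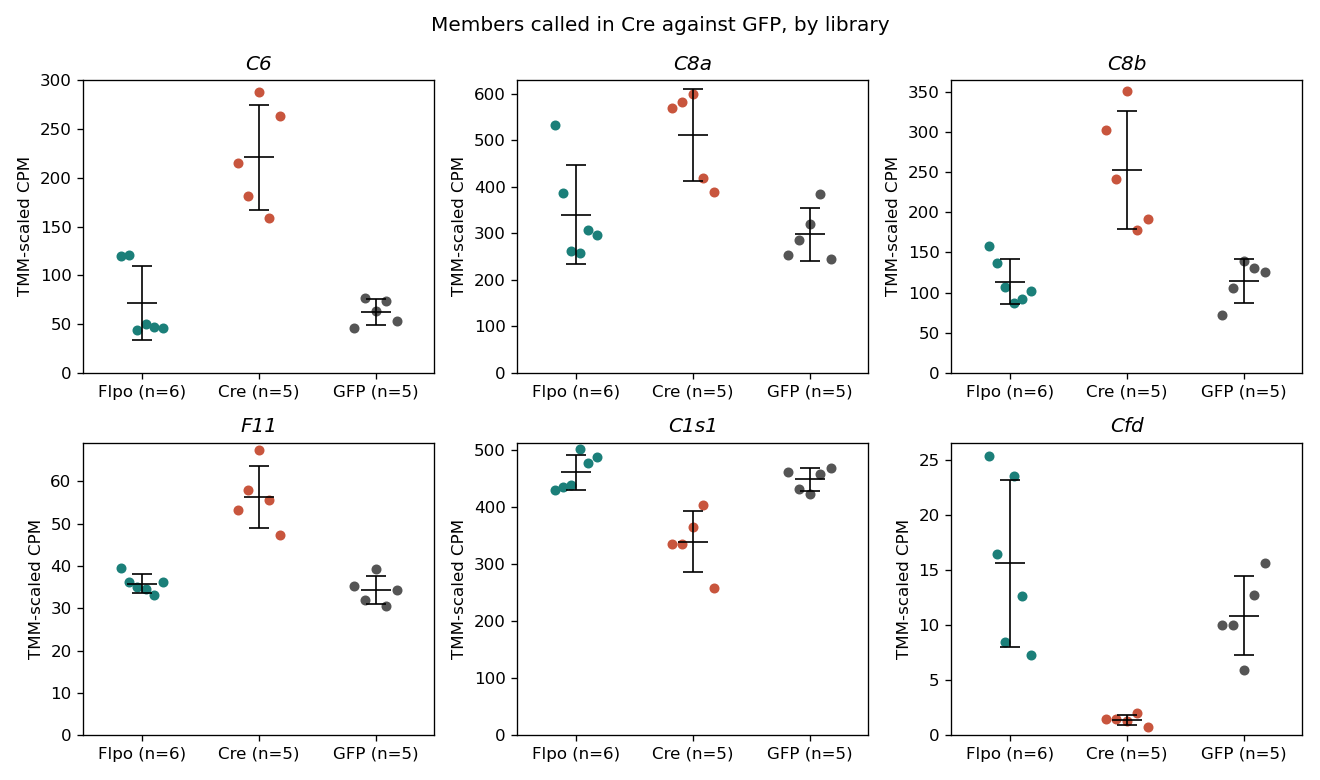
TMM-scaled CPM of the 6 genes called in Cre against GFP, with 1 point per library and bars for the mean ± SD (6 Flpo, 5 Cre and 5 GFP libraries). Cre and GFP points do not overlap for any of the 6, and C6 in Flpo has 2 points near 121 and 4 between 44.1 and 50.1 CPM.

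C6 encodes the component that joins activated C5 to begin the membrane attack complex. In Flpo livers it ran from 44.1 over a median of 48.4 to 121 CPM. It stood at 215, 182, 288, 159 and 263 CPM in Cre livers, against 46.3, 76.6, 63.7, 73.3 and 52.7 CPM in GFP livers. Every Cre library lay above every Flpo and GFP library. The log2 fold change in Cre against GFP was 1.82 (SE 0.31, adjusted p = 0.00182). The gene spans positions 4727175 to 4814967 of chromosome 15, plus strand (GRCm38).

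C8a and C8b encode the alpha and beta chains of the eighth component of complement, which enters the target membrane. C8a ran from 257 over a median of 302 to 534 CPM in Flpo livers. It stood at 569, 582, 600.0, 419 and 389 CPM in Cre livers, against 254, 286, 321, 385 and 245 CPM in GFP livers. Cre libraries lay above all GFP libraries, with the lowest Cre value close to the highest GFP value, and Flpo overlapped both. The log2 fold change in Cre against GFP was 0.78 (SE 0.20, adjusted p = 0.0177).

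C8b ran from 86.7 over a median of 104 to 158 CPM in Flpo livers. It stood at 303, 241, 351, 178 and 191 CPM in Cre livers, against 71.5, 105, 139.6, 131 and 126 CPM in GFP livers. All Cre libraries lay above all others. Cre exceeded GFP by a log2 fold change of 1.14 (SE 0.22, adjusted p = 0.00348). C8a and C8b are neighbours on chromosome 4, on opposite strands and 11130 bases apart. C8g, the gene of the gamma chain of the same component, averaged 275 ± 22.5 CPM in Flpo, 304 ± 36.9 CPM in Cre and 302 ± 43.1 CPM in GFP livers, with a log2 fold change of 0.01 in Cre against GFP (SE 0.11, adjusted p = 0.973).

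After TMM scaling, all 6 terminal genes had a positive log2 fold change in Cre against GFP, with a median of 0.71. Of these, 3 were called. The lowest was C8g at 0.01, which by TPM averaged lower in Cre (369 TPM) than in GFP livers (415 TPM). DESeq2 called 5 of the 6 terminal genes, and limma on log2(TPM + 1) called 3. C9, which polymerises into the pore, averaged 266 ± 75.1 CPM in Flpo, 378 ± 110.0 CPM in Cre and 244 ± 43.4 CPM in GFP livers. Its log2 fold change in Cre against GFP was 0.63 (SE 0.20, adjusted p = 0.0617) and was not called. Hc, the mouse gene of C5, averaged 660.4 ± 153 CPM in Flpo, 789 ± 121 CPM in Cre and 585 ± 41.9 CPM in GFP livers, and was not called either, at 0.43 (SE 0.14, adjusted p = 0.0658). Both passed without Flpo replicate 1 (adjusted p = 0.0256 for C9 and 0.0128 for Hc) and without Cre replicate 5 (adjusted p = 0.0313 and 0.0226). Each passed in 4 alternative settings and stayed uncalled in 22. C9 had an adjusted p = 0.142 with limma on log2(TPM + 1).

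Male-biased liver genes also rose in the livers where C6, C8a and C8b rose, and no test linked the lists. Of 15 listed male-biased genes outside the 48, 13 rose and 0 fell in Cre against GFP, with a median log2 fold change of 2.40. Among them Cyp7b1, an oxysterol hydroxylase, rose by 2.19 on a log2 scale (SE 0.27, adjusted p = 0.000117). Of 16 female-biased genes 12 were tested, and 0 rose and 5 fell.

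Within Flpo livers, C6 and the Mup share were high in the same 2 libraries. Flpo replicates 1 and 2 had 119.6 and 121 CPM of C6 and Mup shares of 6.49% and 4.78%. The other 4 Flpo libraries had 44.1 to 50.1 CPM of C6 and Mup shares of 1.95% to 2.26%. The part of sex-biased expression in the calls for C6, C8a and C8b was not tested.

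Of the 12 genes of complement activation, 2 fell and 0 rose in Cre against GFP. C1s1 encodes C1s, which cleaves C4 and C2. It ran from 431 over a median of 458 to 502 CPM in Flpo livers. It stood at 335, 335, 366, 404 and 259 CPM in Cre livers, against 462, 432, 423, 459 and 469 CPM in GFP livers. All Cre libraries lay below all others. The log2 fold change in Cre against GFP was -0.40 (SE 0.10, adjusted p = 0.0164), and the call was lost in a fit of these groups alone (adjusted p = 0.057).

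C1ra, the gene of the partner protease C1r, lies 6901 bases from C1s1 on chromosome 6, on the other strand. C1ra averaged 226 ± 11.3 CPM in Flpo, 253 ± 34.7 CPM in Cre and 211 ± 15.7 CPM in GFP livers. Its log2 fold change in Cre against GFP was 0.26 (SE 0.09, adjusted p = 0.0796), not called and opposite in sign to that of C1s1. The close copies C1s2 and C1rb had at most 5 and 1 counts in a library.

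Cfd encodes factor D (adipsin), the protease that activates factor B, and had the largest fold change of the 48 in Cre against GFP. It ran from 7.31 over a median of 14.6 to 25.4 CPM in Flpo livers. It stood at 1.50, 1.51, 1.27, 2.02 and 0.785 CPM in Cre livers, against 10.05, 10.1, 5.91, 12.7 and 15.7 CPM in GFP livers. Every Cre library lay below every library of the other groups. The log2 fold change in Cre against GFP was -2.93 (SE 0.37, adjusted p = 0.000136).

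Adipsin is known chiefly from fat cells. The fat cell markers Adipoq, Lep, Plin1 and Retn summed to 0 to 30 counts in Flpo, 0 to 17 in Cre and 0 to 4 in GFP libraries. Cfd itself had 215 to 935 counts in Flpo, 20 to 67 in Cre and 170 to 484 in GFP libraries. These markers were thus near 0 in every group. Of the 6 listed fat cell genes, Car3 and Cidec were tested, and hepatocytes can express both. Car3 fell by 1.73 on a log2 scale in Cre against GFP (SE 0.45, adjusted p = 0.0259). Cidec, named after its values were seen, was not called and had a log2 fold change of 0.66, with 289 CPM in Cre replicate 5, 9.88 to 20.4 CPM in the other Cre libraries and 28.1 to 57.6 CPM in GFP livers.

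The 10 activation genes that were not called lay between -0.28 and 0.26 on the log2 scale in Cre against GFP. C3, on which all routes converge, averaged 5769.7 ± 886 CPM in Flpo, 5908 ± 652 CPM in Cre and 5634 ± 625 CPM in GFP livers, with an adjusted p = 0.784 in Cre against GFP. Cfb, which forms the alternative convertase with C3b, stood at -0.17 (SE 0.10, adjusted p = 0.345). C4b, whose product joins that of C2 in the classical convertase, stood at -0.28 (SE 0.14, adjusted p = 0.235). Reads of C4b may be split with its close copy C4a, which averaged 20.1 ± 5.79 CPM in Flpo, 12.01 ± 3.89 CPM in Cre and 23.04 ± 10.9 CPM in GFP livers. On log2(TPM + 1), limma called C4b, Cfb, Masp2 and Mbl2 lower too, on a scale where the median of all genes was -0.12.

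The 3 complement inhibitors had 0 calls in Cre against GFP in edgeR, with 2 at an unadjusted p under 0.05, 0 in DESeq2 and 0 with limma on log2(TPM + 1). Serping1, which inhibits C1r, C1s and plasma kallikrein, stood at 0.31 (SE 0.12, adjusted p = 0.126). Cfi, which cleaves C3b and C4b, stood at 0.24 (SE 0.09, adjusted p = 0.112), and its cofactor gene C4bp at 0.07 (SE 0.09, adjusted p = 0.684). Serping1 passed without Flpo replicate 1 (adjusted p = 0.0166).

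Of the 5 contact-phase genes, F11 rose in Cre against GFP and the others were not called. F11 encodes factor XI, which activates factor IX. It ran from 33.3 over a median of 35.7 to 39.6 CPM in Flpo livers. It stood at 53.1, 58.00, 67.4, 55.7 and 47.3 CPM in Cre livers, against 35.2, 31.97, 39.4, 30.7 and 34.4 CPM in GFP livers. All Cre libraries lay above all others. Cre exceeded GFP by a log2 fold change of 0.71 (SE 0.10, adjusted p = 0.000161).

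Klkb1, the gene of plasma prekallikrein, lies 4657 bases from F11 on chromosome 8, on the same strand. Klkb1 averaged 269 ± 35.8 CPM in Flpo, 299 ± 62.9 CPM in Cre and 269 ± 12.4 CPM in GFP livers. Its log2 fold change in Cre against GFP was 0.15 (SE 0.13, adjusted p = 0.536; -0.06 on log2(TPM + 1)), and its difference from F11 was not tested. F12, the gene of factor XII that starts the contact phase, stood at 0.10 (SE 0.08, adjusted p = 0.512).

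The genes F2, F3, F7, F9 and F10 of thrombin, tissue factor and the vitamin K-dependent proteases had 0 calls in Cre against GFP in edgeR, with 0 at an unadjusted p under 0.05, 0 in DESeq2 and 0 with limma on log2(TPM + 1). Their log2 fold changes lay between -0.06 and 0.34. F2, which encodes prothrombin, averaged 1721 ± 122 CPM in Flpo, 1638 ± 186 CPM in Cre and 1703 ± 111 CPM in GFP livers. The cofactor genes F5 and F8 stood at 0.00 and -0.40 (adjusted p = 0.9997 and 0.347).

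The 5 coagulation inhibitors Proc, Pros1, Proz, Serpinc1 and Serpind1 lay between -0.21 and 0.19 in Cre against GFP, with 0 calls in edgeR, 0 at an unadjusted p under 0.05, 0 in DESeq2 and 1 with limma on log2(TPM + 1) (Serpind1, lower). The fibrinolysis genes Plg, Serpinf2, Cpb2 and Hrg lay between -0.20 and 0.05, with 0 calls in edgeR, 0 at an unadjusted p under 0.05, 0 in DESeq2 and 1 with limma on log2(TPM + 1) (Hrg, lower). Plg encodes plasminogen and Serpinf2 its inhibitor antiplasmin. Hgfac, the activator of hepatocyte growth factor, stood at -0.26 (SE 0.11, adjusted p = 0.154). It was not called in edgeR, where its unadjusted p was 0.0308, but limma on log2(TPM + 1) called it lower.

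**Figure D3:**
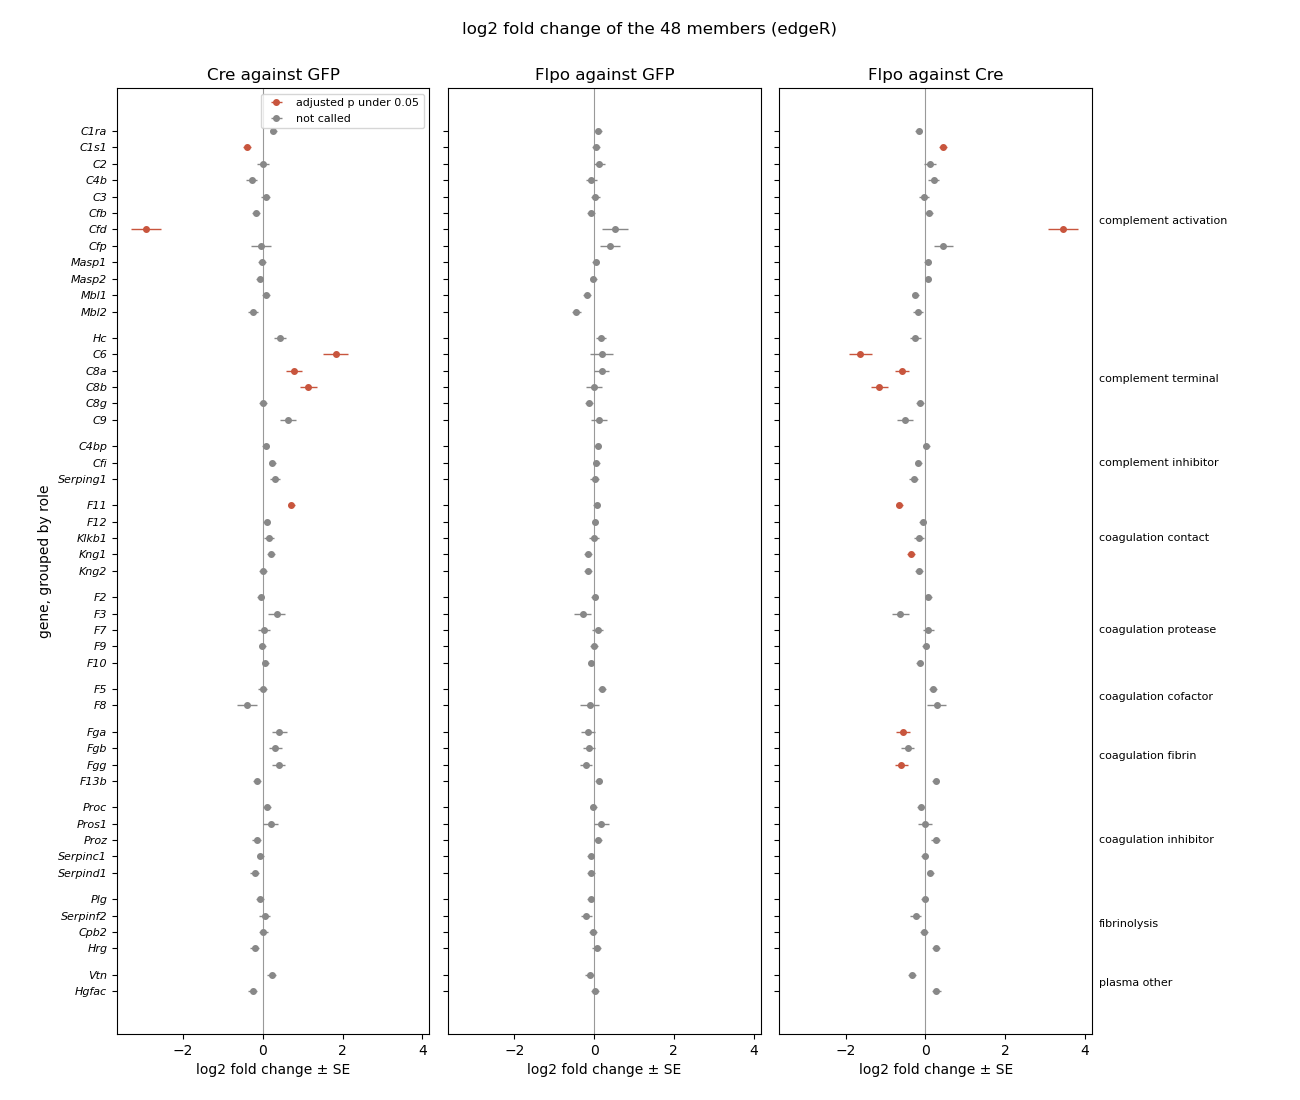
log2 fold changes ± SE of the 48 genes by role in Cre against GFP, Flpo against GFP and Flpo against Cre, with adjusted p under 0.05 in red. C6, C8a and C8b stand at 1.82, 0.78 and 1.14 in Cre against GFP, and no gene is red in Flpo against GFP.

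In Flpo against GFP livers none of the 48 genes was called, beside 0.0288% of all genes (edgeR's quasi-likelihood test, 1 at an unadjusted p under 0.05, 0 in DESeq2 and 0 with limma on log2(TPM + 1)). The median log2 fold change over the 48 was 0.01. Mbl2, a mannose-binding lectin of the lectin pathway, was the gene with an unadjusted p under 0.05, beside 9.73% of all genes. It was also the only one of the 48 without overlap between these groups, beside 1.55% of all genes (0.676% above and 0.87% below). It ran from 209.8 over a median of 225 to 271 CPM in Flpo livers, against 293, 282, 329, 307 and 346 CPM in GFP livers. All Flpo libraries lay below all GFP libraries. The log2 fold change was -0.44 (SE 0.12, adjusted p = 0.287).

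None of the 6 genes called in Cre against GFP was called in Flpo against GFP. There C6 stood at 0.19 (SE 0.29, adjusted p = 0.86), C8b at -0.01 (SE 0.21, adjusted p = 0.991) and F11 at 0.06 (SE 0.09, adjusted p = 0.855). Cfd had the largest value of the 48, 0.52 (SE 0.32, adjusted p = 0.619). Both comparisons share the GFP libraries.

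In Flpo against Cre livers 9 of 48 genes were called, or 18.8%, beside 13.7% of all genes. Cfd and C1s1 were higher in Flpo (7.45% of all genes were), and C6, C8a, C8b, F11, Kng1, Fga and Fgg were lower (6.26% of all genes were). The Cre libraries are those of the comparison with GFP. Libraries did not overlap for 6 of 48 genes, beside 7.84% of all genes. Cfd, C1s1 and Proz lay above in Flpo (4.52% of all genes did), and C6, C8b and F11 below (3.32% did). Proz, the gene of protein Z, was not called at 0.26 (SE 0.11, adjusted p = 0.145).

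C6 fell in Flpo against Cre by 1.63 on a log2 scale (SE 0.29, adjusted p = 0.00155), and C8b by 1.15 (SE 0.21, adjusted p = 0.00143). F11 fell by 0.65 (SE 0.09, adjusted p = 0.000161) and C8a by 0.59 (SE 0.19, adjusted p = 0.0435). Cfd rose by 3.45 (SE 0.37, adjusted p = 2.3e-05) and C1s1 by 0.44 (SE 0.10, adjusted p = 0.00492). Calls in complement were 5 among 21 genes, and 4 among the other 27. These counts were 5 and 8 in DESeq2, and 7 and 8 with limma on log2(TPM + 1).

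Fga, Fgb and Fgg encode the chains of fibrinogen and lie together on chromosome 3, with 11026 bases between Fga and Fgg and 6513 between Fga and Fgb. Fga ran from 2147 over a median of 2294 to 4461 CPM in Flpo livers. It stood at 4557, 4458, 3723, 2974 and 3961 CPM in Cre livers and at 3118, 2732, 3609.6, 2587 and 2753 CPM in GFP livers. The highest Flpo value belongs to replicate 1, and the other 5 Flpo libraries lay below all Cre libraries. Fga fell in Flpo against Cre by 0.56 on a log2 scale (SE 0.17, adjusted p = 0.0406).

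Fgg ran from 1701 over a median of 1862 to 3119 CPM in Flpo livers. It stood at 3656, 3662, 3044, 2304 and 2975 CPM in Cre livers and at 2591, 2426, 2726, 1998 and 2163 CPM in GFP livers. Flpo and Cre overlapped only through Flpo replicate 1. Fgg fell in Flpo against Cre by 0.60 (SE 0.16, adjusted p = 0.0157). On log2(TPM + 1) neither was called, with Fgg at -0.41 (adjusted p = 0.0693) and Fga at -0.38 (adjusted p = 0.112). Fgb was not called at -0.45 (SE 0.16, adjusted p = 0.0663), but passed without Flpo replicate 1 (log2 fold change -0.62, adjusted p = 0.00314).

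In Cre against GFP, Fga, Fgb and Fgg were not called, at 0.41, 0.31 and 0.39 (adjusted p = 0.172, 0.252 and 0.145). Without Flpo replicate 1, Fga and Fgg passed there (adjusted p = 0.0353 and 0.0493). F13b encodes the carrier subunit of the factor that links fibrin. It stood at 0.26 in Flpo against Cre (SE 0.09, adjusted p = 0.0567), opposite in sign to the fibrinogen chains. DESeq2 called F13b and all fibrinogen chains in that comparison.

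Fibrinogen belongs to the acute phase proteins, and 19 others were listed. Of these, 5 rose and 0 fell in Flpo against Cre, and 0 rose and 5 fell in Cre against GFP. Lcn2, which encodes the iron-siderophore binder lipocalin-2, averaged 52.2 ± 18.2 CPM in Flpo, 10.8 ± 2.14 CPM in Cre and 53.8 ± 6.26 CPM in GFP livers. The direction of these calls is opposite to that of Fga and Fgg in Flpo against Cre. Called or not, 12 of the 19 had a positive log2 fold change there. The rest shared the sign of Fga and Fgg, down to -0.48.

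**Figure D4:**
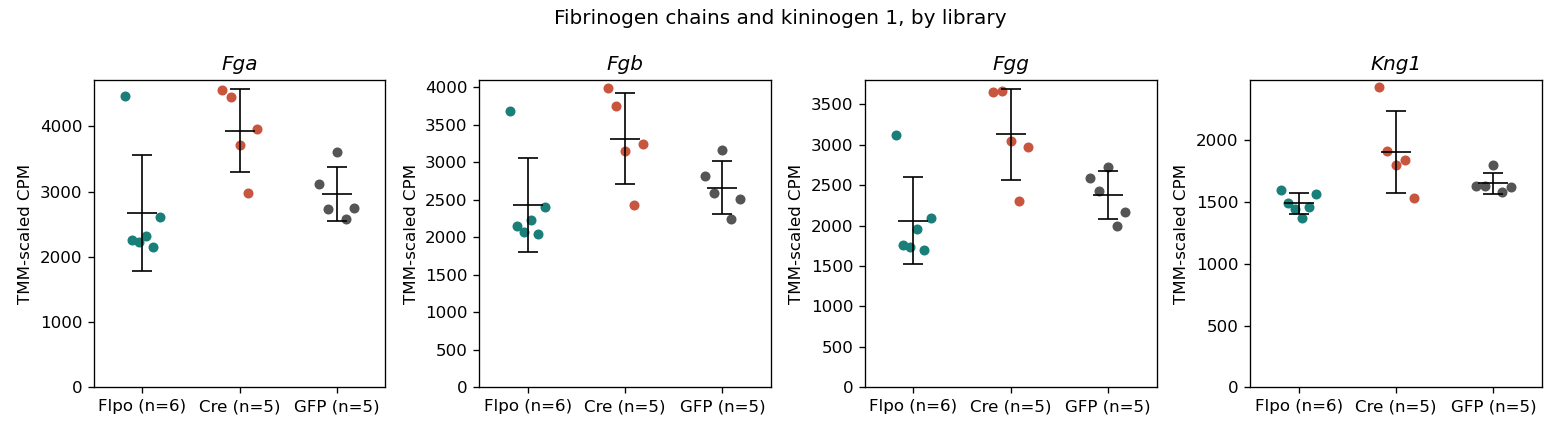
TMM-scaled CPM of the fibrinogen genes and Kng1, with 1 point per library and bars for the mean ± SD (6 Flpo, 5 Cre and 5 GFP libraries). For each fibrinogen chain 1 Flpo library stands far above the other 5, at 4461 CPM for Fga.

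Kng1 encodes kininogen, the source of bradykinin and a cofactor of the contact phase. It ran from 1368 over a median of 1476 to 1598 CPM in Flpo livers, against 2434, 1913, 1799, 1841 and 1536 CPM in Cre livers. The groups overlapped through the lowest Cre library. Kng1 fell in Flpo against Cre by 0.36 (SE 0.10, adjusted p = 0.0215), but was not called with library totals alone (adjusted p = 0.144) or on log2(TPM + 1) (adjusted p = 0.401). Its close copy Kng2 stood at -0.15 (SE 0.10, adjusted p = 0.338; 0.06 on log2(TPM + 1)). Vtn was not called at -0.33 (SE 0.11, adjusted p = 0.0535), nor was F3 at -0.63 (SE 0.21, adjusted p = 0.06).

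Of 26 further complement genes 22 were tested, and 1 rose and 1 fell in Cre against GFP. Cd59a, which blocks the membrane attack complex on the body's own cells, averaged 81.1 ± 4.81 CPM in Flpo, 57.96 ± 9.61 CPM in Cre and 79.2 ± 4.92 CPM in GFP livers. It fell in Cre against GFP by 0.45 (SE 0.10, adjusted p = 0.00746) and was higher in Flpo against Cre by 0.48 (SE 0.09, adjusted p = 0.00221). Cfhr2, a gene related to factor H, rose in Cre against GFP by 0.38 (SE 0.09, adjusted p = 0.0131). In Flpo against Cre, 1 was higher and 3 were lower, and in Flpo against GFP edgeR called 0, with 3 at an unadjusted p under 0.05, 0 in DESeq2 and 0 with limma on log2(TPM + 1).

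Of 25 further coagulation and fibrinolysis genes 21 were tested, and 2 rose and 1 fell in Cre against GFP. Serpine2, an inhibitor of thrombin and of plasminogen activators, averaged 4.45 ± 2.23 CPM in Flpo, 16.7 ± 5.54 CPM in Cre and 4.41 ± 0.710 CPM in GFP livers. It rose in Cre against GFP by 1.93 (SE 0.32, adjusted p = 0.00119). Gas6, a vitamin K-dependent relative of protein S, was higher in Flpo against Cre by 0.72 (SE 0.18, adjusted p = 0.0112). In Flpo against GFP edgeR called 0, with 1 at an unadjusted p under 0.05, 0 in DESeq2 and 0 with limma on log2(TPM + 1).

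Of 22 listed regulators of hepatocyte genes and of IL-6 signalling, 2 rose and 1 fell in Cre against GFP. Socs3, a feedback inhibitor of IL-6 signalling, rose by 1.16 (SE 0.29, adjusted p = 0.0176). Of 17 clock genes, 0 rose and 4 fell in Cre against GFP, and 9 rose and 4 fell in Flpo against Cre.

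Among markers of other liver cells, 5 of 12 stellate cell genes fell in Cre against GFP, and their sum was 219 to 301 TPM in Flpo, 114 to 228 TPM in Cre and 199.7 to 275 TPM in GFP livers. Kupffer cell and macrophage markers summed to 131 to 322 TPM in Flpo, 127 to 179 TPM in Cre and 149 to 251 TPM in GFP livers, and endothelial markers to 49.2 to 97.1 TPM in Flpo, 64.9 to 90.01 TPM in Cre and 60.6 to 83.97 TPM in GFP livers. Platelet markers summed to 3.96 to 7.14 TPM in Flpo, 2.12 to 5.49 TPM in Cre and 3.998 to 8.32 TPM in GFP livers, and those of lymphocytes and neutrophils to 6.35 to 12.5 TPM in Flpo, 8.43 to 17.5 TPM in Cre and 7.62 to 12.5 TPM in GFP livers. Cholangiocyte markers summed to 32.9 to 83.9 TPM in Flpo, 23.4 to 45.8 TPM in Cre and 38.4 to 47.7 TPM in GFP livers, and red cell markers to 1129 to 2719 TPM in Flpo, 1283 to 1975 TPM in Cre and 1775 to 4146 TPM in GFP livers. The part of these cell types, of the clock genes and of the regulators in the results for the 48 genes was not tested.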

How the data were processed

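Titles put the 16 liver libraries in their groups. Per the labels' protocols, poly(A) RNA was sequenced in pairs of 150 bases. Per the submitters' processing notes, cutadapt, STAR and the mm10 build were used; which program produced the values, and with which annotation and strand setting, is not given in the sources used here. The authors deposited estimated counts per gene, 31.7% of them not whole, and TPM. The estimated counts were rounded and tested with edgeR 4.0.16 (R 4.3.3) after filterByExpr with a minimum count of 10, with TMM factors and 1 robust quasi-likelihood model of all libraries, without covariates. Genes with a Benjamini-Hochberg adjusted p under 0.05 over all 13905 tested were called. Each SE is the log2 fold change divided by the root of F. The procedure was tested on simulated counts with known changes in Cre and a spread taken from the fit. These held no deviating library, so that test does not bear on results that moved with single libraries. Low counts limit precision, as for Cfd.

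The 48 genes and all lists were chosen with earlier results of these data known. Any of the 48 could be named, with full statistics for those called, and up to 3 called genes per further list and comparison, by smallest adjusted p. Alternatives used DESeq2 1.42.0, limma 3.58.1 on log2(TPM + 1) or log2(TPM + 0.1), other scalings, filters and thresholds, fits without each library, and close copies summed, the last chosen after seeing the data. Gene positions are those of GENCODE and gene starts those of RefSeq.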

Additional observations from a re-analysis of the deposited data

Results flagged for a closer look

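Each gene was checked in each group for a library far from the rest (Dixon's test), and 14 of 144 cases stood out. The test flags about 1 in 20 independent cases. These cases share libraries and are not independent, so the counts cannot be compared. High values of Flpo replicate 1 made up 8 of the 14. C4b stood at 2384 CPM there, against 1584 to 1867 CPM in the other Flpo libraries. Hc stood at 963 CPM there, against 546 to 639.6 CPM in the other Flpo libraries. C9 stood at 411 CPM there, against 208 to 277 CPM in the other Flpo libraries. C4bp stood at 709 CPM there, against 556 to 589 CPM in the other Flpo libraries. Serping1 stood at 923 CPM there, against 545 to 616 CPM in the other Flpo libraries. Fga stood at 4461 CPM there, against 2147 to 2613 CPM in the other Flpo libraries. Fgb stood at 3682 CPM there, against 2047 to 2408 CPM in the other Flpo libraries. Fgg stood at 3119 CPM there, against 1701 to 2092 CPM in the other Flpo libraries.

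The others lay in Cre and GFP libraries. C2 stood at 92.99 CPM in GFP replicate 5, against 66.4 to 72.7 CPM in the other GFP libraries. Kng1 stood at 1802 CPM in GFP replicate 3, against 1583 to 1631 CPM in the other GFP libraries. Kng2 stood at 263 CPM in Cre replicate 1, against 185 to 203 CPM in the other Cre libraries. Proz stood at 175 CPM in Cre replicate 5, against 268 to 295 CPM in the other Cre libraries. Proz stood at 345 CPM in GFP replicate 5, against 273 to 286 CPM in the other GFP libraries. Serpind1 stood at 282 CPM in Cre replicate 5, against 392 to 437 CPM in the other Cre libraries. The cause of these values was not tested.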

How the results depend on the processing

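Counts of members called moved with the scale and with single libraries. In Cre against GFP, limma called 13 members on log2(TPM + 1) and 13 on log2(TPM + 0.1), each 4 higher and 9 lower, beside 6 in edgeR. In Flpo against Cre it called 15 and 15, each 12 higher and 3 lower, beside 9, and an adjusted p under 0.01 left 5. DESeq2 called 9 members in Cre against GFP and 13 in Flpo against Cre, beside 1777 and 2313 of 15553 genes. Leaving out each library in turn gave 6 to 11 members for Cre against GFP, 6 to 14 for Flpo against Cre and 0 to 0 for Flpo against GFP. The 11 and 14 came without Flpo replicate 1, and the 6 in Flpo against Cre without Cre replicate 1. No called member changed sign under these scalings. C1ra, not called in Flpo against Cre at -0.16, turned to 0.054 on log2(TPM + 1) and 0.055 on log2(TPM + 0.1). It was 1 of 14 members, none called, that changed sign there on log2(TPM + 1), as did 14 in Cre against GFP and 5 in Flpo against GFP. Klkb1 in Cre against GFP turned to -0.06 and Kng2 in Flpo against Cre to 0.06. With library totals alone 12 changed sign in Cre against GFP and 7 in Flpo against Cre. In Flpo against Cre, C8a and Fga each lost the call in 15 of 26 alternatives, Kng1 in 5 and Fgg in 3. C6, C8b, F11 and Cfd were called in all 26 in both comparisons with Cre livers, and C1s1 in Flpo against Cre.

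Over all genes, Cre against GFP had 1328 (552 higher, 776 lower) calls, with 2104 (216 higher, 1888 lower) on log2(TPM + 1), 2172 (213 higher, 1959 lower) on log2(TPM + 0.1), 1956 (300 higher, 1656 lower) with library totals alone, 834 with these groups alone and 475 at 0.01. Flpo against Cre had 1906 (1036 higher, 870 lower), with 2743 (2417 higher, 326 lower) on log2(TPM + 1), 2264 (1810 higher, 454 lower) with library totals alone and 881 at 0.01. Flpo against GFP had 4, with 67 in DESeq2, 1 with these groups alone, 0 at 0.01 and 0 to 15 without single libraries, 15 without Flpo replicate 1 and 15 without GFP replicate 5. With library totals alone the median change over all genes was -0.14 in Cre against GFP and 0.13 in Flpo against Cre. Replicate numbers did not pair the libraries: deviations of same-numbered libraries correlated at -0.22 to 0.22 over 15 pairs. With the replicate number as a block, without Flpo replicate 6, 6 members and 1019 of all genes were called for Cre against GFP. The same fit called 8 members, C8a being lost, and 1352 genes for Flpo against Cre, and 0 members and 0 genes for Flpo against GFP.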
